A study of Macaca fascicularis and Mus musculus with 42 samples.

Results

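Mouse primordial germ cell-like cells (PGCLC) of day 6 of induction were compared with those of day 4. The comparison rests on 4 of the 42 bulk libraries of the series, namely all 4 made from mouse cells, 2 from day 6 and 2 from day 4. The other 38 libraries came from the cynomolgus monkey and were not used. The members were the entries of the mouse table of gene levels, with the spike-in entries left out, which gave 34896 entries.

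All 4 libraries came from the single mouse embryonic stem cell line R8, which carries the transgenes Blimp1-membraneVenus and Dppa3-ECFP, fluorescent reporters of Prdm1 (also called Blimp1) and Dppa3. Naive stem cells were first turned into epiblast-like cells, and these were reaggregated in GK15 medium, GMEM with 15% KSR, a serum replacement. The aggregates of both days received 1000 U/ml LIF, 10 µM of the ROCK kinase inhibitor Y27632, and 3 growth factors, namely EGF at 50, stem cell factor (SCF) at 100 and BMP4 at 200 ng per ml. The days are thus lengths of 1 induction with no change of factors stated, and no untreated culture or mouse stem cell library was part of the comparison. The library names carry the letters BV, which the labels do not spell out, and no sorting gate is stated for the mouse cells. The labels do not say that libraries of a day were separate cultures, so p-values measure the spread between these libraries, which may be technical. Libraries are called 1 and 2 within a day in the order of the labels.

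Primordial germ cells are the founders of eggs and sperm. In the mouse embryo BMP4 induces them from the epiblast, and Prdm1, Prdm14 and Tfap2c, a group of transcription factors, set up their program, which silences the mesodermal genes that BMP and WNT signals switch on in neighbouring cells and brings back genes of naive pluripotency. Later the cells lose DNA methylation across the genome, and a group of germ cell genes whose promoters are kept silent by methylation, among them genes of the piRNA pathway, becomes active. PGCLC made from epiblast-like cells are a culture model of the early steps of this course.

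Sequencing libraries of transcript 3′ ends had been made from 1 ng of RNA each. Levels are in RPM, the reads of a gene scaled to the total of its library. Depth was 2.26 to 2.48 M reads, so that a single read stood for 0.404 to 0.442 RPM, and 14412 to 14917 genes were above 0 in each library. Across the tested genes, log2 levels of 2 libraries of a day correlated with Pearson's r of 0.978 on day 6 and 0.974 on day 4, and those of different days with 0.945 to 0.960, as a description across genes. The germ cell label fits the markers: Prdm1, Dppa3, Tfap2c, Prdm14, Nanos3, Dnd1 and Kit were above 10 RPM in all 4 libraries. Markers of blood, endoderm and neural cells were low or not called. Of the blood and endothelium list the highest value of any member was 8.81 RPM, and Ptprc, the leukocyte marker, was listed at 0 in every library. The endoderm markers Afp and Ttr were also at 0 throughout, and Foxa2 reached at most 0.42 RPM; the endoderm list summed to 274 and 358 RPM on day 6, against 316 and 359 RPM on day 4, most of it from Apoe, a lipid carrier gene of many cell types. None of its 3 tested members was called, but 2 were above 0, and their median log2 difference was 0.88, against -0.05 for all tested genes. The 1 tested of 12 neural markers was not called either. The neural sums were 30.2 and 28.6 RPM on day 6, against 32.2 and 24.8 RPM on day 4. The day 6 mean was higher in 4 of the 12 and lower in 5. Pax6, a neural factor under the filter, had 4.62 and 8.88 RPM on day 6, against 0 and 1.33 RPM on day 4. A list of extraembryonic ectoderm and amnion was higher in level and moved with the days. Its 17 members summed to 249.7 and 349 RPM on day 6, against 488 and 507 RPM on day 4. Of its 8 tested members 3 (Hand1, Krt8 and Krt18) were lower and none was higher, against 1.39% and 1.2% of all tested genes. The part of such cells in the results was not tested. In such bulk libraries fewer cells of a type and less RNA per cell cannot be told apart.

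Between the days 214 of 8255 tested genes changed, 2.59% of those tested. Higher on day 6 were 99 genes (1.2%) and lower 115 (1.39%). Among genes with established names, the largest increases were those of the ribosomal protein paralog Rpl39l, the X-linked homeobox gene Rhox6, BC048679, the autophagy receptor Calcoco2 and the homeobox gene Rhox9, in this order. The largest decreases were those of the epiblast genes Nkx1-2 and Sox3, the WNT ligand Wnt5a, the antisense transcript Msx1os and the chemokine gene Cxcl12. A gene was tested when it reached 10 RPM in at least 2 of the 4 libraries, and was called when its limma p, adjusted over all tested genes by Benjamini-Hochberg, was under 0.05 and its difference in log2(RPM + 1) was at least 1. The median difference of all tested genes was -0.05. Of the called genes, 23 passed the filter only through day 6 and 46 only through day 4, and these had to differ to be tested at all. Among the 10 largest increases of genes with established names these were Rpl39l, Dnmt3l, Slc5a11, Inpp5d and Piwil2, and among the 10 largest decreases all but Hand1 and Krt8. When either day 6 library was left out, no gene was called by limma (866 genes without library 1 and 984 without library 2 had an unadjusted p under 0.05, and 1596 in the full fit), and thus none of the list counts below was kept. Without day 4 library 1, 62 genes were called and without day 4 library 2, 195. The 46 genes that passed only through day 4 could not be tested with either day 4 library left out. Day 4 library 2 was nearer than library 1 to the day 6 level in 90 of the 115 lower genes. It was also nearer in 68 of the 99 higher ones. After quantile normalization 56.5% of the called genes were higher on day 6, against 46.3% as deposited.

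**Figure D1:**
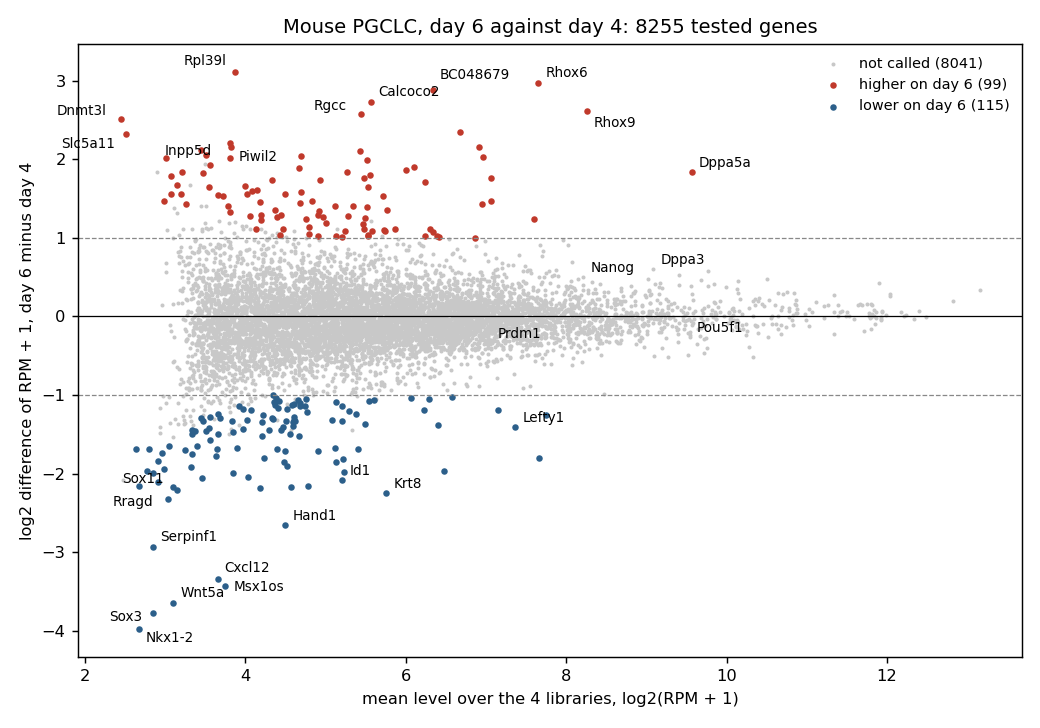
Each point is 1 of the 8255 tested genes, with its mean level over the 4 libraries in log2(RPM + 1) on the horizontal axis and its log2 difference, day 6 minus day 4, on the vertical axis; red points are the 99 genes higher on day 6, blue points the 115 lower, grey points genes that were not called, and dashed lines mark a difference of 1. Rhox6, Rhox9 and Dppa5a stand out among the genes of high mean level above the upper line, while Nkx1-2, Sox3 and Wnt5a lie lowest and at low mean levels.

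Few of the factors that specify germ cells were called. Of 22 genes on a list of germ cell specification 16 were tested, of which 1 was higher (Tcl1) and 1 lower (Lin28a). Of all tested genes 1.2% were higher and 1.39% lower. The median log2 difference of the list was -0.08. Prdm1 (chr10:44437177-44528501, minus strand, GRCm38), the repressor that marks the start of the lineage, had 108 and 127 RPM on day 6, against 141 and 156 RPM on day 4 (log2 difference -0.34 ± 0.14, limma adjusted p = 0.224). Both day 6 libraries lay below both day 4 libraries, and the difference did not pass the test. Dppa3 (chr6:122626410-122630272, plus strand), also called Stella, a maternal factor that guards against loss of methylation in the zygote and is turned on in germ cells, had 829 and 540.4 RPM on day 6, against 425 and 455 RPM on day 4 (log2 difference 0.60 ± 0.17, limma adjusted p = 0.0723). Both day 6 libraries were above both day 4 libraries, with library 1 far above library 2 on day 6. Both genes are the ones whose reporters the line carries, and whether cells were chosen by reporter is not stated.

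Among the other specification factors, Tfap2c had 238 and 234 RPM on day 6, against 299 and 275 RPM on day 4 (log2 difference -0.28 ± 0.11, limma adjusted p = 0.216). Prdm14, which represses the epiblast program, had 102 and 117 RPM on day 6, against 97.2 and 135 RPM on day 4, and there the days overlapped. Nanos3, an RNA-binding protein that protects migrating germ cells, was low, with 10.9 and 10.5 RPM on day 6, against 14.6 and 19 RPM on day 4. Dnd1, its RNA-binding partner in germ cell survival, stood at 120.5 and 125 RPM on day 6, against 120.1 and 119.8 RPM on day 4, the closest agreement among these genes. Kit, the receptor for the SCF in the medium, had 251 and 228 RPM on day 6, against 358 and 299.6 RPM on day 4 (log2 difference -0.45 ± 0.13, limma adjusted p = 0.074), so that the day 6 libraries were lower without passing the test. Lin28a, an RNA-binding protein that blocks the maturation of let-7 microRNAs, fell to 22.7 and 21.8 RPM on day 6, against 60.5 and 53.9 RPM on day 4 (log2 difference -1.32 ± 0.20, limma adjusted p = 0.00586). Without day 4 library 1 its difference was -1.24 (limma adjusted p = 0.0633) and no longer passed.

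Genes of naive pluripotency held 6 of the increases. Of 20 members 17 were tested, with 6 higher and none lower, against the 1.2% of all tested genes that were higher. Their median difference was 0.73. Tcl1, a coactivator of AKT kinase, had 63 and 42.4 RPM on day 6, against 16.3 and 8.4 RPM on day 4 (log2 difference 2.04 ± 0.31, limma adjusted p = 0.00693). Dppa5a, a small RNA-binding protein of stem cells and germ cells, was the member with most reads, with 1777 and 1149 RPM on day 6, against 517 and 311 RPM on day 4 (log2 difference 1.83 ± 0.23, limma adjusted p = 0.00203). With a robust prior Dppa5a was not called (limma adjusted p = 0.138), and the list had 4 higher members. Of the 30-base runs in the last 300 bases of its transcripts, 57.9% also occur in other annotated genes, so its reads could be split or shared by the counting.

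Dppa2 (chr16:48303908-48319723, plus strand) and Dppa4 (chr16:48283733-48294237, plus strand) lie side by side on chromosome 16 and encode partners that keep promoters of developmental genes poised. Dppa2 had 86 and 60.1 RPM on day 6, against 21.2 and 17.7 RPM on day 4 (log2 difference 1.84 ± 0.22, limma adjusted p = 0.00183). Dppa4 had 257 and 232 RPM on day 6, against 75.5 and 67.6 RPM on day 4 (log2 difference 1.76 ± 0.14, limma adjusted p = 0.000116). In both genes the days did not overlap. Fbxo15, an F-box gene active in stem cells, and Zfp42, which encodes the stem cell marker Rex1, completed the higher members, with changes on the log2 scale of 1.73 ± 0.38 and 1.12 ± 0.19 (adjusted p by limma of 0.0339 and 0.0129). Esrrb, a nuclear receptor of the naive network, had 374 and 338 RPM on day 6, against 164 and 219 RPM on day 4 (log2 difference 0.91 ± 0.15, limma adjusted p = 0.00884), and Tfcp2l1, another factor of that network, had 99.1 and 90 RPM on day 6, against 51.2 and 57.9 RPM on day 4 (log2 difference 0.78 ± 0.16, limma adjusted p = 0.0248); both passed the p threshold but not that of size. Klf4 and Tbx3, further naive factors, stayed below 10 RPM in all 4 libraries.

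The core pluripotency factors were well detected on both days. Of 12 tested members of that list none was higher and Lin28a alone was lower, against 1.2% and 1.39% of all tested genes. Their median was -0.18. Pou5f1, the POU factor that germ cells share with stem cells, had 821 and 561 RPM on day 6, against 890.3 and 743 RPM on day 4 (log2 difference -0.26 ± 0.16, limma adjusted p = 0.426), with overlapping days. Sox2, its partner on DNA, had 393 and 384 RPM on day 6, against 418 and 466 RPM on day 4 (log2 difference -0.18 ± 0.11, limma adjusted p = 0.401). Nanog, a homeobox factor, had 366 and 339 RPM on day 6, against 239 and 259.8 RPM on day 4 (log2 difference 0.50 ± 0.11, limma adjusted p = 0.0392); it passed the p threshold in the higher direction but not that of size.

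The Rhox homeobox genes, a cluster on the X chromosome expressed in reproductive tissues, held 2 of the 10 largest increases of genes with established names. Rhox6 (chrX:37826910-37829857, plus strand) had 546 and 578 RPM on day 6, against 49.5 and 100.8 RPM on day 4 (log2 difference 2.97 ± 0.25, limma adjusted p = 0.000198). Rhox9 (chrX:37899097-37901770, minus strand) had 723 and 788 RPM on day 6, against 80.8 and 186 RPM on day 4 (log2 difference 2.61 ± 0.28, limma adjusted p = 0.000692). With a robust prior Rhox9 was not called (limma adjusted p = 0.161). In both genes day 4 library 2 was above day 4 library 1, and each day 6 library was well above either. Of 13 entries of the family in the table these 2 alone were tested, 6 were listed at 0 in all 4 libraries, and the rest stayed under the filter. Only 6.27% of the 30-base runs at the end of Rhox6 transcripts and 2.95% of those of Rhox9 are shared with another gene.

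Germ cell genes that DNA methylation is known to keep silent were mostly low, and a few rose. Of 46 such and later germ cell genes 16 were tested, of which 4 were higher and 1 lower, against 1.2% and 1.39% of all tested genes, with a median difference of 0.81. Of the tested members 2, Piwil2 and Tex19.1, had passed the filter only through day 6 and 1 only through day 4. Among the 16 the day 6 mean was the higher one in 12, against 3533 of all 8255 tested genes. Among the 30 under the filter it was the higher one in 21 and the lower one in 6, with 3 listed at 0 throughout, against 3956 higher and 5486 lower of the 9447 entries of the table under the filter and above 0 in some library. Within the days 9 of the 16 (56.2%) were higher in library 1 than in library 2 on both days, against 28.7% of all tested genes. Piwil2, a PIWI protein that binds piRNAs, had 37.4 and 22.2 RPM on day 6, against 6.62 and 4.86 RPM on day 4 (log2 difference 2.16 ± 0.33, limma adjusted p = 0.00693). Tex19.1, which restrains retrotransposons, had 42.4 and 17.4 RPM on day 6, against 8.83 and 3.98 RPM on day 4 (log2 difference 2.01 ± 0.44, limma adjusted p = 0.0341), a wide spread within each day. When day 4 library 2 was left out its difference was 1.52 (limma adjusted p = 0.106), not past the test. Mageb16, an X-linked gene of the MAGE family, had 45.3 and 42 RPM on day 6, against 14.6 and 13.3 RPM on day 4 (log2 difference 1.58 ± 0.22, limma adjusted p = 0.00454). Zfp42, given above, was the remaining higher member. Ddx25, an RNA helicase of the testis, was the member that fell, with 9.65 and 9.28 RPM on day 6, against 26.9 and 19 RPM on day 4 (log2 difference -1.18 ± 0.29, limma adjusted p = 0.0471), and it had passed the filter only through day 4.

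The classical later markers lay near the limit of these libraries. Ddx4, the germ cell helicase also called Vasa, had 17.6 and 19.4 RPM on day 6, against 10.2 and 5.3 RPM on day 4 (log2 difference 1.22 ± 0.34, limma adjusted p = 0.0783), not past the test. Dazl, an RNA-binding protein required for germ cell development, was under the filter, with 6.3 and 3.63 RPM on day 6, against 4.86 and 3.09 RPM on day 4. Mael, a piRNA pathway gene also under the filter, had 5.04 and 4.44 RPM on day 6 and was listed at 0 in both day 4 libraries. Stra8, the gene that marks entry into meiosis, was at 0 in both day 6 libraries and at 0.44 RPM, a single read, in both day 4 libraries.

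**Figure D2:**
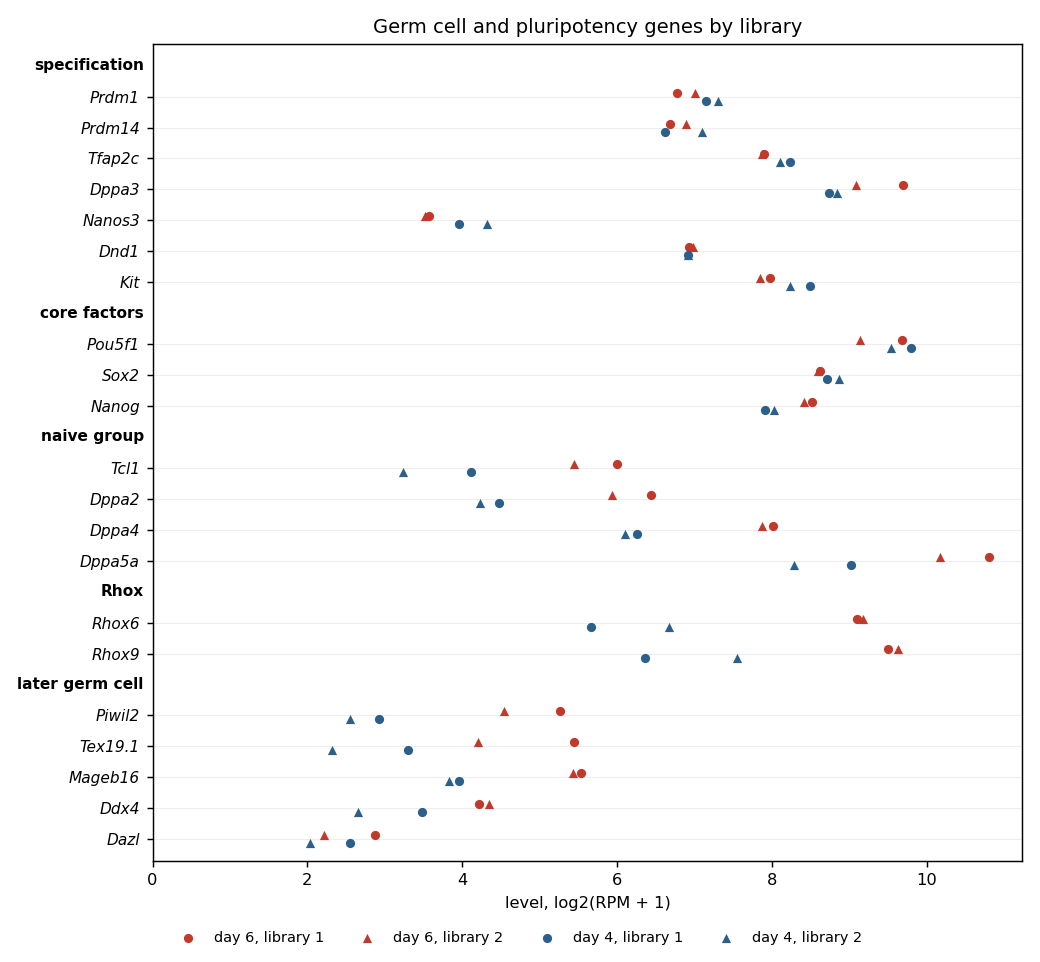
Levels of 21 germ cell and pluripotency genes in log2(RPM + 1), with red symbols for the day 6 libraries and blue symbols for the day 4 libraries (circles library 1, triangles library 2). Red and blue symbols lie close together for Prdm1, Prdm14, Dnd1 and Pou5f1, and apart for Tcl1, Dppa2, Dppa4, Dppa5a, Rhox6 and Rhox9.

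Enzymes of DNA methylation were compared because germ cells lose methylation during this period. Of 15 tested genes of DNA methylation and demethylation 1 was higher, against 1.2% of all tested genes, and the median difference was 0.01. Dnmt3l, a cofactor without catalytic activity that assists the de novo methyltransferases in germ cells, had 10.9 and 13.3 RPM on day 6, against 2.65 and 0.44 RPM on day 4 (log2 difference 2.51 ± 0.52, limma adjusted p = 0.0267); it passed the filter only through day 6, and the day 4 values stand for a few reads. Dnmt3a, a de novo methyltransferase, had 28.1 and 25.4 RPM on day 6, against 20.3 and 19.9 RPM on day 4, and Dnmt3b, the other one, had 7.97 and 12.5 RPM on day 6, against 12.8 and 5.3 RPM on day 4. Uhrf1, which brings the maintenance methyltransferase to replicating DNA, was low, with 22.7 and 20.6 RPM on day 6, against 28.7 and 16.8 RPM on day 4, while Dnmt1, that methyltransferase itself, had 195 and 204 RPM on day 6, against 214 and 214 RPM on day 4. Dnmt3a, Dnmt3b, Uhrf1 and Dnmt1 did not pass the test (limma adjusted p = 0.384, 0.813, 0.973 and 0.692). None of 22 tested histone H3K9 methyltransferases, Polycomb subunits and related enzymes was called, against 2.59% of all tested genes. At that share a list of this size holds few called genes or none.

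Several large decreases were of epiblast and mesoderm genes. On the list of primed epiblast genes 10 of 22 were tested and 4 were lower, against 1.39% of all tested genes. All 4 had passed the filter only through day 4, so they had to be lower on day 6 to be tested, and their count is a description. Nkx1-2, a homeobox gene of the caudal epiblast, had 0.84 and 0.4 RPM on day 6, against 39.7 and 14.6 RPM on day 4 (log2 difference -3.97 ± 0.50, limma adjusted p = 0.00231). Sox3, a SOX factor of the epiblast and early neural tissue that lies on the X chromosome, had 1.68 and 0.4 RPM on day 6, against 40.6 and 15.9 RPM on day 4 (log2 difference -3.78 ± 0.51, limma adjusted p = 0.00356). On day 6 both were down to a few reads a library, and on day 4 library 1 was well above library 2. Sox11, a related factor, and Cdh2, which encodes N-cadherin, fell with changes on the log2 scale of -2.21 ± 0.49 and -1.94 ± 0.39 (adjusted p by limma of 0.0341 and 0.0258). Otx2 and Fgf5, well-known markers of epiblast-like cells, were low on both days: Otx2 had 1.26 and 0.81 RPM on day 6, against 0.88 and 0.44 RPM on day 4, and Fgf5 had 1.26 and 1.61 RPM on day 6, against 3.97 and 5.74 RPM on day 4.

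Among 30 genes of the primitive streak and mesoderm 4 were tested and 3 were lower, against 1.39% of all tested genes. Of these 3, Wnt5a had passed the filter only through day 4. Hand1, a transcription factor of extraembryonic and lateral mesoderm, had 10.5 and 6.05 RPM on day 6, against 60.1 and 51.7 RPM on day 4 (log2 difference -2.66 ± 0.28, limma adjusted p = 0.000692). Wnt5a, a WNT ligand that acts in axis extension, had 1.68 and 1.21 RPM on day 6, against 36.7 and 23.4 RPM on day 4 (log2 difference -3.64 ± 0.38, limma adjusted p = 0.000692). Evx1, a homeobox gene of the streak, had 14.7 and 13.7 RPM on day 6, against 51.2 and 27.4 RPM on day 4 (log2 difference -1.34 ± 0.29, limma adjusted p = 0.0341), and without day 4 library 1 its difference was -0.90 (limma adjusted p = 0.241). Bmp4, the fourth tested member, had 23.1 and 16.1 RPM on day 6, against 12.4 and 8.84 RPM on day 4 (log2 difference 0.82 ± 0.31, limma adjusted p = 0.175). T, the streak factor brachyury, was under the filter, with 0.42 and 0.4 RPM on day 6, against 12.8 and 2.21 RPM on day 4, so that the level on day 4 came mainly from library 1.

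The HOX and CDX genes, which pattern the body axis and are repressed in germ cells, showed the same order of libraries. None of the 36 passed the filter, and 5 were listed at 0 in all 4 libraries. In the other 31 the day 6 mean was below the day 4 mean in every case, against 5486 of the 9447 entries under the filter and above 0 in some library. This is a description of genes with few reads, none of which was tested. Their summed level was 10.5 and 13.7 RPM on day 6, against 157 and 54.8 RPM on day 4. Hoxa10 and Hoxa9, from the posterior part of the cluster, illustrate the split within day 4: Hoxa10 had 0 and 0.4 RPM on day 6, against 18.1 and 1.77 RPM on day 4, and Hoxa9 had 0 and 0.4 RPM on day 6, against 15.9 and 0.88 RPM on day 4. The CDX genes did not show this split: on day 4 Cdx1 had 7.51 and 14.1 RPM, Cdx2 8.83 and 9.28 RPM and Cdx4 1.32 and 1.33 RPM. The summed day 4 level of the list still rested on library 1 for the larger share. Without it Hand1 was still called, with -2.55 (limma adjusted p = 0.00903), Evx1 was not, and the 4 epiblast genes and Wnt5a fell under the filter and were not tested.

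**Figure D3:**
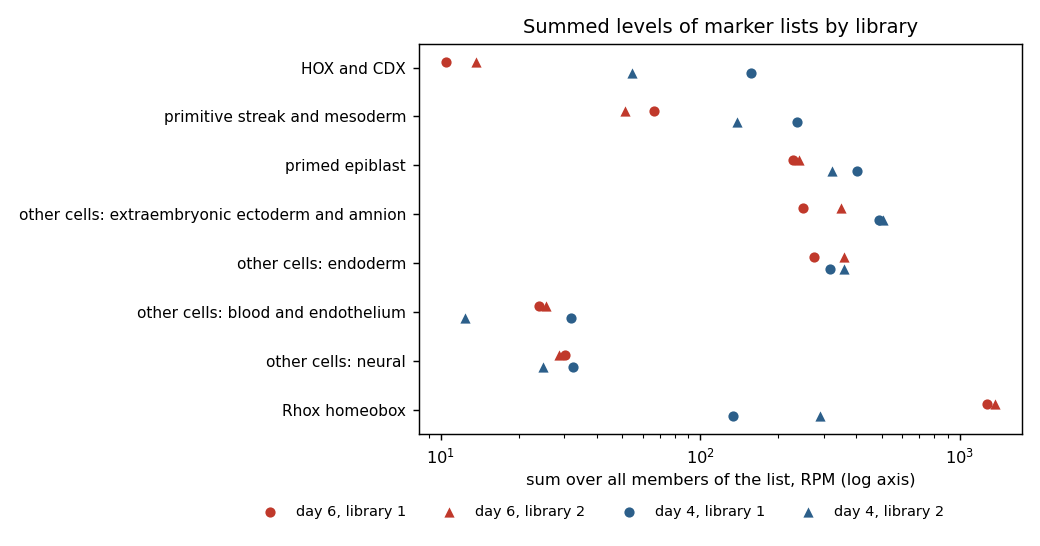
Summed levels of all members of 8 gene lists in RPM on a log axis, with red symbols for the day 6 libraries and blue symbols for the day 4 libraries (circles library 1, triangles library 2). The sums of the HOX and CDX list are 10.5 and 13.7 RPM on day 6, against 157 and 54.8 RPM on day 4, those of the Rhox list lie in the opposite order, those of extraembryonic ectoderm and amnion are lower on day 6 without overlap, and those of endoderm, blood and neural markers overlap between the days.

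On a list of targets and other genes of the BMP pathway, the inducing signal, members were lower or not called, and none was higher. Of 14 tested members 3 were lower, against 1.39% of all tested genes, with a median of -0.29. The difference was above 0 in 4 of the 14. Id2, Hey1 and Gata2 were not called, with log2 differences of -0.04 ± 0.21, -0.06 ± 0.15 and 0.54 ± 0.30. Id4 had passed the filter only through day 4. Id1, an inhibitor of bHLH factors and a direct BMP target, had 13.4 and 21.4 RPM on day 6, against 92.7 and 61 RPM on day 4 (log2 difference -2.08 ± 0.27, limma adjusted p = 0.00239). Id4, of the same family, and Bambi, a decoy receptor that dampens BMP signals, fell with changes on the log2 scale of -1.69 ± 0.39 and -1.06 ± 0.25 (adjusted p by limma of 0.0396 and 0.0422). Bambi was not called without day 4 library 1, at -0.76 (limma adjusted p = 0.283). Id3, the family member with most reads, had 270.3 and 264 RPM on day 6, against 301 and 367 RPM on day 4 (log2 difference -0.32 ± 0.13, limma adjusted p = 0.203), below on day 6 but not past the test. Msx1, a homeobox target of BMP, was under the filter at 0 in both day 6 libraries and at 8.83 and 9.72 RPM on day 4. Bmpr1a, a type I receptor for BMP4, had 75.1 and 82.7 RPM on day 6, against 104 and 86.2 RPM on day 4, with an adjusted p of 0.405 by limma.

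WNT and NODAL genes held 4 of the decreases. Of 11 tested members 4 fell and none rose, against 1.39% and 1.2% of all tested genes. Their median was -0.89, against -0.05 for all tested genes. Notum had passed the filter only through day 4. Lefty1, a feedback inhibitor of NODAL, had 103 and 96.9 RPM on day 6, against 449 and 158 RPM on day 4 (log2 difference -1.41 ± 0.34, limma adjusted p = 0.0465), and most of the day 4 level was in library 1. Notum, which inactivates WNT ligands, had 7.14 and 7.26 RPM on day 6, against 19.9 and 18.1 RPM on day 4 (log2 difference -1.28 ± 0.30, limma adjusted p = 0.0392). Tcf7, a transcription factor of the WNT pathway, had 23.9 and 22.2 RPM on day 6, against 53.4 and 46.8 RPM on day 4 (log2 difference -1.09 ± 0.20, limma adjusted p = 0.0178). Without day 4 library 1 the difference of Lefty1 was -0.66 (limma adjusted p = 0.123) and that of Tcf7 -0.99 (limma adjusted p = 0.136), neither past the test. Nodal itself had 19.7 and 26.6 RPM on day 6, against 27.8 and 16.8 RPM on day 4, with overlapping days.

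In the FGF pathway 1 of 11 tested members was higher and none lower, against 1.2% and 1.39% of all tested genes. The median difference of the list was -0.30, and 2 of the 11 were above 0. The called member Fgfr2, a receptor for FGF ligands, had 78.9 and 74.7 RPM on day 6, against 31.4 and 39.8 RPM on day 4 (log2 difference 1.10 ± 0.18, limma adjusted p = 0.0103). This call was lost without day 4 library 1, at a difference of 0.93 (limma adjusted p = 0.0699). No feedback gene of ERK signalling was called, among them Etv5 with 482 and 415 RPM on day 6, against 511 and 461 RPM on day 4 and Spred1 with 64.6 and 64.2 RPM on day 6, against 142 and 96.8 RPM on day 4 (log2 difference -0.86 ± 0.18, limma adjusted p = 0.0327). Of 14 tested genes of LIF, KIT and migration signals Cxcl12 alone was called, against 2.59% of all tested genes. This gene had passed the filter only through day 4, so it had to be lower on day 6 to be tested. It encodes the chemokine that guides migrating germ cells and had 2.1 and 4.04 RPM on day 6, against 51.2 and 29.6 RPM on day 4 (log2 difference -3.34 ± 0.37, limma adjusted p = 0.000801). Its receptor gene Cxcr4 was under the filter, with 0.84 and 2.42 RPM on day 6, against 2.65 and 3.09 RPM on day 4.

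Among surface genes 2 of 16 tested were lower, against 1.39% of all tested genes. Cd24a, a surface glycoprotein, had 86.9 and 133 RPM on day 6, against 414 and 342 RPM on day 4 (log2 difference -1.80 ± 0.18, limma adjusted p = 0.000692), and Cdh2 is given above. Cdh1, which encodes E-cadherin, had 157 and 192 RPM on day 6, against 187 and 222 RPM on day 4, with overlapping days, and Epcam, an adhesion molecule of epithelia, had 147 and 157 RPM on day 6, against 181 and 146 RPM on day 4. Cd9, a tetraspanin of stem cells and germ cells, had 338 and 356 RPM on day 6, against 143 and 219.6 RPM on day 4 (log2 difference 0.97 ± 0.17, limma adjusted p = 0.0155) and fell short of the threshold of size. The keratin genes Krt8 and Krt18, partners in simple epithelia that lie close together on chromosome 15, both fell. Krt8 had 16.4 and 34.3 RPM on day 6, against 122 and 111 RPM on day 4 (log2 difference -2.25 ± 0.28, limma adjusted p = 0.0019), and Krt18 had 34 and 69.4 RPM on day 6, against 109.5 and 114 RPM on day 4 (log2 difference -1.19 ± 0.26, limma adjusted p = 0.0345). Within day 6, library 2 was well above library 1 for both, and Krt18 was not called when either day 4 library was left out, with -1.22 (limma adjusted p = 0.145) without library 1 and -1.15 (limma adjusted p = 0.099) without library 2. They and Hand1 were the 3 lower members among 8 tested genes of extraembryonic ectoderm and amnion. Over the 17 members, tested or not, the day 6 mean was the lower one in 11 and the higher one in 4. Cdx2, a caudal and trophectoderm factor under the filter, had 1.26 and 4.04 RPM on day 6, against 8.83 and 9.28 RPM on day 4, and Gata3, a GATA factor of trophectoderm, had 2.1 and 2.42 RPM on day 6, against 4.86 and 4.42 RPM on day 4. Elf5, a trophoblast factor, was at 0 on day 4 and reached at most 0.84 RPM on day 6. Among 11 tested matrix and stromal genes 1 was lower and 1 higher, against 1.39% and 1.2% of all tested genes. Vim, an intermediate filament gene of mesenchyme, fell to 179.6 and 107 RPM on day 6, against 382 and 289 RPM on day 4 (log2 difference -1.26 ± 0.21, limma adjusted p = 0.0115), while Myl9, a myosin light chain, rose to 66.3 and 64.2 RPM, against 25.6 and 38 RPM on day 4 (log2 difference 1.04 ± 0.21, limma adjusted p = 0.0259). Without day 4 library 1 the difference of Vim was -1.06 (limma adjusted p = 0.0929) and that of Myl9 0.76 (limma adjusted p = 0.145), neither past the test.

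**Figure D4:**
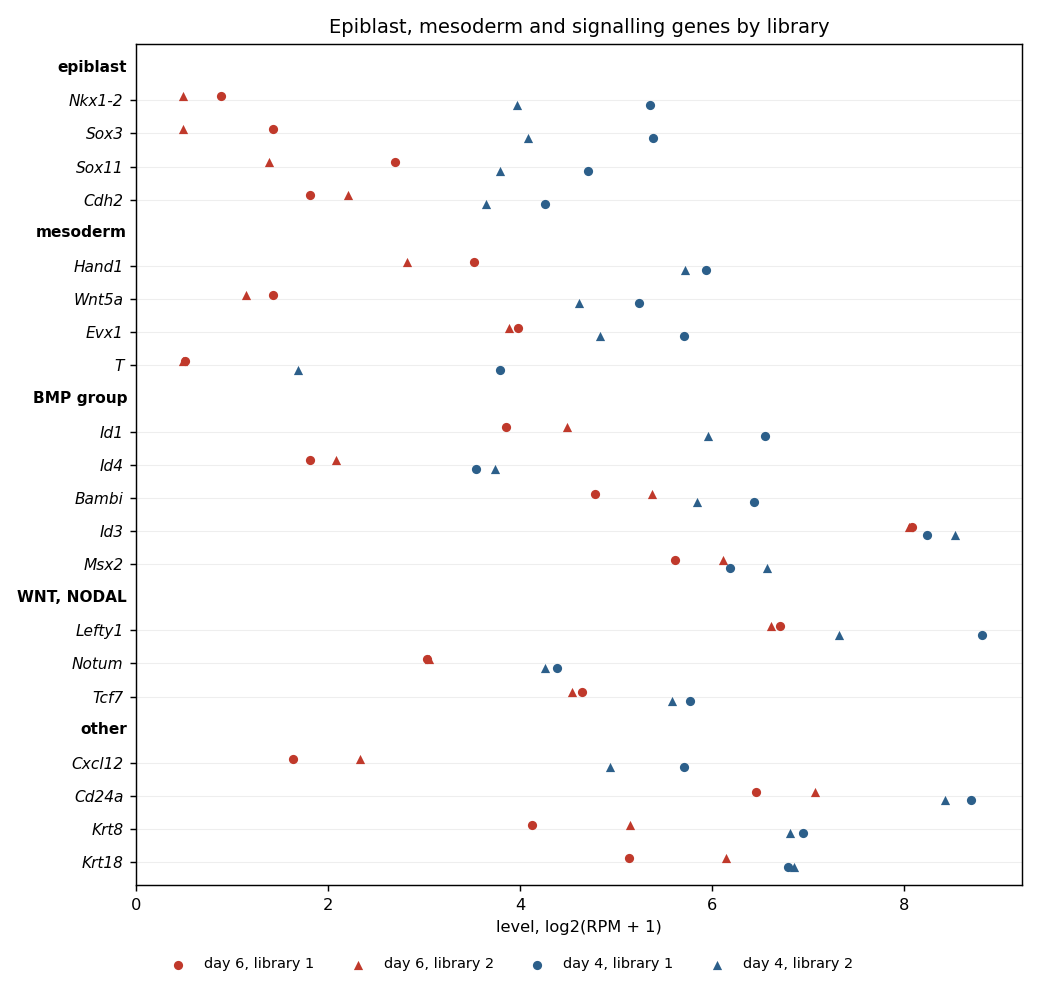
Levels of 20 genes of the epiblast, mesoderm, BMP, WNT and NODAL groups, and of Cxcl12, Cd24a, Krt8 and Krt18, in log2(RPM + 1), with red symbols for the day 6 libraries and blue symbols for the day 4 libraries (circles library 1, triangles library 2). Red symbols lie left of blue ones in each row, and day 4 library 1 lies to the right of day 4 library 2 for Nkx1-2, Sox3, T and Lefty1.

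Several of the largest changes concerned genes outside these groups. Rpl39l, a paralog of a ribosomal protein that is enriched in the testis, had 60.9 and 28.7 RPM on day 6, against 5.74 and 2.65 RPM on day 4 (log2 difference 3.11 ± 0.41, limma adjusted p = 0.00276). It had passed the filter only through day 6. BC048679, a gene without an established role, had 220.4 and 216 RPM on day 6, against 23 and 35.8 RPM on day 4 (log2 difference 2.88 ± 0.20, limma adjusted p = 6.83e-05). Calcoco2, an autophagy receptor, had 121 and 122 RPM on day 6, against 17.2 and 17.7 RPM on day 4 (log2 difference 2.73 ± 0.17, limma adjusted p = 6.65e-05), with the libraries of each day close together. It was the 1 called of 2 tested genes on a list of retroelement and 2-cell genes, which had 13 members in the table. Of all tested genes 2.59% were called. Rgcc, a regulator of the cell cycle, had 118 and 93.6 RPM on day 6, against 14.1 and 19.9 RPM on day 4 (log2 difference 2.58 ± 0.22, limma adjusted p = 0.000198).

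The other large increases were in genes of low level. Inpp5d, the lipid phosphatase SHIP1, and Slc5a11, a sodium-coupled transporter of inositol, rose by 2.21 ± 0.30 and 2.32 ± 0.42 on the log2 scale (adjusted p by limma of 0.00393 and 0.016); both passed the filter only through day 6. Among decreases, Msx1os, the antisense transcript of Msx1, had 2.94 and 3.23 RPM on day 6, against 51.7 and 35.4 RPM on day 4 (log2 difference -3.42 ± 0.31, limma adjusted p = 0.000284); whether the counting used strand is not stated, so its reads and those of Msx1 cannot be told apart. Serpinf1, a secreted serpin, and Rragd, a Rag GTPase of the mTORC1 pathway, fell with changes on the log2 scale of -2.93 ± 0.51 and -2.32 ± 0.36 (adjusted p by limma of 0.0134 and 0.00792). Msx1os, Serpinf1 and Rragd had all passed the filter only through day 4, so they had to be lower on day 6 to be tested.

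The cell cycle groups gave no calls. Among 24 tested genes of S phase and 25 of mitosis none was called, against 2.59% of all tested genes. At that share lists of this size hold few called genes or none. Their medians were -0.06 and -0.12. Mki67, the proliferation marker, had 227 and 235 RPM on day 6, against 234 and 209.9 RPM on day 4. No call was made among 18 tested p53 targets and apoptosis genes, 27 of oxidative phosphorylation and 16 of amino acid stress (medians 0.15, 0.10 and -0.04). The 24 of cholesterol and fatty acid synthesis and 14 immediate early genes had none either (medians 0.36 and -0.16). In 18 of these 24 the day 6 mean was the higher one, against 3533 of all 8255 tested genes. Fdps and Fdft1 among them passed the p threshold but not that of size (0.78 and 0.72, limma adjusted p = 0.0115 and 0.0196). So did Cox5a of oxidative phosphorylation (0.53, limma adjusted p = 0.0377) and Phgdh of amino acid stress (-0.70, limma adjusted p = 0.0425). In glycolysis and pyruvate use 3 of 27 tested genes were higher, against 1.2% of all tested genes. Ldhb, the lactate dehydrogenase subunit of oxidative tissues, had 282 and 311 RPM on day 6, against 117 and 134 RPM on day 4 (log2 difference 1.24 ± 0.13, limma adjusted p = 0.000692), and 18.5% of the 30-base runs at its transcript end occur in a predicted gene as well. Vegfa, an angiogenic factor on this list for its response to low oxygen, and Hk1, a hexokinase, rose with changes on the log2 scale of 1.66 ± 0.29 and 1.18 ± 0.21 (adjusted p by limma of 0.0129 and 0.0136). Vegfa had passed the filter only through day 6. Without day 4 library 1 these were 1.59 (limma adjusted p = 0.0589) and 1.00 (limma adjusted p = 0.089), neither past the test.

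Imprinted genes, expressed from a single parental allele until germ cells erase the marks, were described because erasure follows in this lineage. Of 22 tested 3 were lower and none higher, against 1.39% and 1.2% of all tested genes, with a median of -0.21. Grb10, a growth-restraining adaptor, had 29 and 17.8 RPM on day 6, against 116 and 48.2 RPM on day 4 (log2 difference -1.68 ± 0.35, limma adjusted p = 0.0297). Meg3, a long noncoding RNA, had 23.9 and 28.3 RPM on day 6, against 91.4 and 43.3 RPM on day 4 (log2 difference -1.24 ± 0.30, limma adjusted p = 0.0425). Igf2, a fetal growth factor, had 74.7 and 58.5 RPM on day 6, against 185 and 98.6 RPM on day 4 (log2 difference -1.02 ± 0.25, limma adjusted p = 0.0465), and an overlapping readthrough gene shares its whole transcript end. In all 3 day 4 library 1 was well above day 4 library 2, and without that library their differences were -1.05 (limma adjusted p = 0.179), -0.71 (limma adjusted p = 0.279) and -0.57 (limma adjusted p = 0.279). H19, the noncoding neighbour of Igf2, had 109 and 97.3 RPM on day 6, against 88.3 and 55.7 RPM on day 4 (log2 difference 0.55 ± 0.20, limma adjusted p = 0.175). Of 4 tested genes of MHC class I 1 was lower, against 1.39% of all tested genes. This was B2m, the light chain of the complex, with 5.88 and 7.26 RPM on day 6, against 22.5 and 18.1 RPM on day 4 (log2 difference -1.49 ± 0.31, limma adjusted p = 0.0268). It had passed the filter only through day 4, so it had to be lower on day 6 to be tested.

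**Figure D5:**
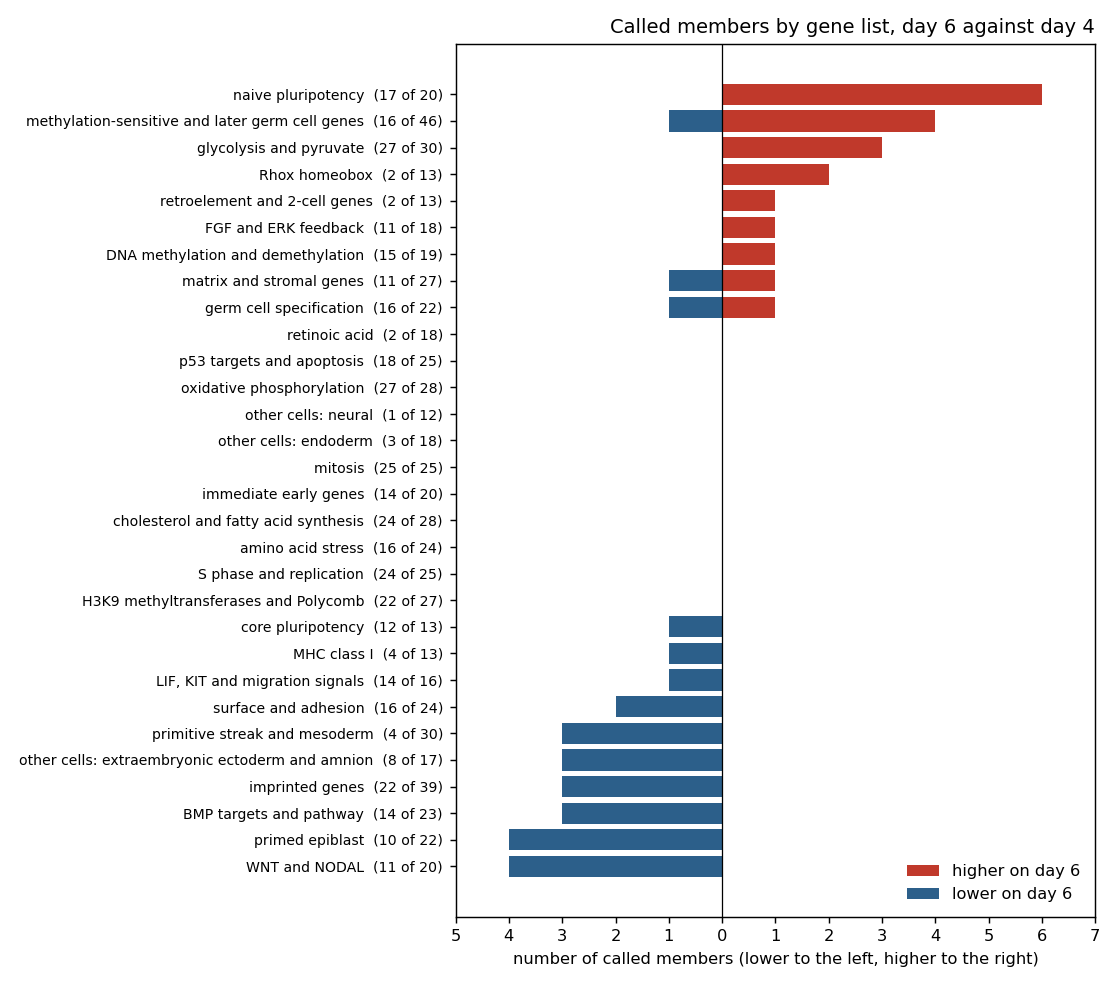
Number of called members of each gene list with at least 1 tested member, drawn to the right in red where they were higher on day 6 and to the left in blue where they were lower; the numbers in parentheses are tested members and members in the table. Naive pluripotency has 6 higher members, WNT and NODAL genes have 4 lower members and the cell cycle lists have none, against 1.2% of all tested genes higher and 1.39% lower; the 4 lower primed epiblast members had passed the filter only through day 4.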

How the data were processed

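Levels were deposited by the authors as RPM, reads scaled to the library total, per the labels and the name of the table, from 3′ RNA-seq of 1 ng total RNA. Cutadapt 1.3, TopHat 1.4.1, Cufflinks 2.2.0 and the build GRCm38 appear in the submitters' processing notes, with no role or order; the use of strand is not stated there. Low values were nearly all whole multiples of a step, which gave the depth (99.6% to 99.8% of values up to 100 steps within 0.1 of a step), but whole reads were not recovered for the table, so no count model was run. Intervals of counting error were not computed, and a level near 1 RPM rests on a few reads.

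From the deposited RPM, log2(RPM + 1) was fitted with limma 3.58.1 in R 4.3.3 (moderated linear model, intensity trend) on the 4 mouse libraries, day 6 minus day 4, over genes that reached 10 RPM in 2 or more libraries; the 96 spike-in entries were left out. Log2 differences are given ± SE and understate changes of low genes. With 2 libraries a day an exact permutation test could not go below p = 0.333. The fit was also run on simulated libraries with 200 changed genes. These were drawn independently with the same dispersion for every gene, so the run does not show how often calls in the real libraries are wrong. Positions are from GENCODE M21 (GRCm38), matched by Entrez ID for 8129 of 8255 tested genes and 64 of 65 named genes; sharing of transcript ends was counted in its transcripts.

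The comparison and the 32 gene lists (701 symbols, 693 in the table, 386 tested, 43 called) were chosen with earlier results of these data known. Named were 16 fixed genes (germ cell, pluripotency and methylation genes, and T), up to 4 called members with the largest differences per list, and the 10 largest increases and decreases with established names. 1 gene that this rule names is counted but not reported here. Members completing a count, and members given as values only, were chosen after their values were seen. Alternatives were other pseudocounts, filters, scalings, variance models and thresholds, a term for the title numbers, and each library left out.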

Additional observations from a re-analysis of the deposited data

How the results depend on the processing

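The 49 called genes that are named kept their direction under every alternative in which they were tested. With a pseudocount of 10, 94 genes were called (48 higher, 46 lower), with a mean of at least 20 RPM 130 (65 and 65; 32 of the named genes), with no intensity trend 110 (45 and 65; 30 named genes and 23 list members), with the adjusted p alone 355 (166 and 189), and with a log2 difference of at least 2 it was 38 (19 and 19; 23 named genes and 15 list members). Without a filter 17702 genes were tested by limma and 0 were called (2429 at an unadjusted p under 0.05), so 0 named genes and 0 list members were called; the cause was not tested. Leaving out each library in turn gave 0 to 195 called genes, 0 to 121 higher, 0 to 74 lower, 0 to 34 named genes and 0 to 43 list members, where the lone library of a day is assumed to vary like those of the other. A pseudocount of 0.1, rescaling without spike-ins and a robust prior called 209, 214 and 227 genes; the robust prior shared 199 of them with the 214 and lost Rhox9, Dppa5a, Igf2, Krt18, Meg3, Lefty1 and Grb10. Median-of-ratios scaling called 209 (115 higher, 94 lower) and lost Lefty1, Igf2, Bambi and Ddx25; quantile normalization called 193 (109 higher, 84 lower) and lost Lefty1, Igf2, Meg3, Notum, Id4 and Ddx25.

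Values near 0 that were not called changed sign. Uhrf1 was 0.040 under median-of-ratios scaling and 0.040 under quantile normalization, and Prdm14 was 0.0013 under median-of-ratios scaling. With a library left out Uhrf1 ranged from -0.39 to 0.35, Prdm14 from -0.30 to 0.17, Pou5f1 from -0.54 to 0.014 and Dnmt3b from -0.33 to 0.53.

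The labels give no replicate numbers. The title numbers fall into 2 series with 1 library of each day, and deviations of the libraries of a series correlated with 0.174 across genes, which with 2 pairs does not show that they were paired. With this series as a replicate block 195 genes were called (91 higher, 104 lower), 184 of them shared with the 214; Bambi, Meg3 and Ddx25 were not called. The block changed no other call of a named gene. Count models (edgeR, DESeq2) were not run, because the deposited values are RPM. Of the 214 called genes, day 4 library 2 was nearer to the day 6 level in 158. A depth of 2.26 to 2.48 M reads limits genes under 10 RPM, and 2 libraries a day limit every p.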

Other observations

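Genes of some lists differed between the libraries within each day, in the same direction on both days. Among 27 tested genes of glycolysis and pyruvate use, 19 (70.4%) were higher in library 1 than in library 2 on day 6 and also on day 4, against 28.7% of all tested genes. The share was 75% of 24 tested genes of cholesterol and fatty acid synthesis, 57.1% of 14 of LIF, KIT and migration signals, 56.2% of 16 methylation-sensitive and later germ cell genes and 50% each of 12 core pluripotency and 14 immediate early genes. It was 3 of 4 tested genes of MHC class I and all 4 of the primitive streak and mesoderm, and 29.6% of 27 of oxidative phosphorylation. Ldha, the lactate dehydrogenase subunit of glycolytic cells, had 72.6 and 14.9 RPM on day 6, against 96.7 and 28.3 RPM on day 4. Slc16a3, a lactate exporter, had 53.3 and 9.28 RPM on day 6, against 54.3 and 13.3 RPM on day 4, and Pgk1, a glycolytic kinase, had 1079 and 565 RPM on day 6, against 808 and 431 RPM on day 4. Phlda2, an imprinted gene of placental growth, had the opposite order, with 190.1 and 446 RPM on day 6, against 184 and 497 RPM on day 4. Within each day these 4 genes differed by library number, and none was called between the days (limma adjusted p = 0.629, 0.892, 0.503 and 0.962). These genes were chosen after their values were seen, and the cause of the pattern was not tested.

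By position on GRCm38, 8 of 276 tested genes on the X chromosome were higher on day 6 (2.9%) and 10 lower (3.62%), against 1.2% and 1.39% of all tested genes. On chromosome 16, where Dppa2, Dppa4 and Rpl39l lie, 6 of 284 tested genes were higher (2.11%) and none was lower. Over the autosomes the shares ran from 0.504% to 2.11% higher and from 0% to 2.51% lower. These shares are descriptions with no test. Retinoic acid genes were near the limit of detection, and of 18 members 2 were tested and none was called. Fos and Egr1, immediate early genes that respond to handling and growth factors, were not called. Fos had 9.65 and 7.26 RPM on day 6, against 13.7 and 39.3 RPM on day 4 and Egr1 had 3.36 and 4.84 RPM on day 6, against 17.2 and 10.6 RPM on day 4 (limma adjusted p = 0.105 and 0.052).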
